A study of Rattus norvegicus with 109 samples.

Results

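Ptgs1 and Ptgs2, the genes of the 2 cyclooxygenases, were taken by name from a table of 19 genes measured by quantitative PCR. The table covered 109 sections of the rat NTS (nucleus of the solitary tract), cut out by laser, the site in the brainstem where blood pressure signals from the arteries arrive. The study asked what inhibition of miR-135a and miR-376a in the brainstem does to gene expression in spontaneously hypertensive rats (SHR), an inbred strain that develops high blood pressure, and in Wistar Kyoto rats (WKY), the related strain with normal pressure. SHR Cocktail gave 17 sections from 5 rats, SHR Scrambled 15 from 2 and SHR Sham 27 from 1. WKY Cocktail gave 27 sections from 4 rats, WKY Scrambled 15 from 5 and WKY Sham 8 from 3. These numbers of rats follow the animal numbers in the labels, while the submitters' design statement gives 4 to 5 for each group. Which holds is not known, and it bears on every n given here and on SHR Sham and the Ptgs2 level of SHR Scrambled, which by the animal numbers are 1 rat each. Cocktail was taken as the 25 uL injection of equal parts of anti-miR-135a and anti-miR-376a locked nucleic acids at 10 uM in artificial cerebrospinal fluid, since the protocol calls that mix by another name. Scrambled was a locked nucleic acid that matches no known microRNA or mRNA, and in Sham rats the cannula and an empty needle were placed without an injection. By the protocol all 6 groups thus had surgery, the labels name no introduced allele, and they give neither age nor sex, though the design text calls the strains matched in age.

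Cyclooxygenases turn arachidonic acid, released from membranes by phospholipase A2, into prostaglandin H2, from which specific synthases make the prostaglandins and thromboxane. Ptgs1 encodes COX-1, which most tissues make at a steady level and which microglia express in brain. Ptgs2 encodes COX-2, an immediate-early gene product that neurons make at low levels and that synaptic activity, cytokines such as interleukin-1 and injury induce. Angiotensin II in the brain is known to act in part through prostaglandins, and the leukotrienes arise from the same arachidonic acid through 5-lipoxygenase and its partner protein, encoded by Alox5ap.

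The microRNAs that the Cocktail was aimed at are shown first, since every Cocktail comparison rests on them. The labels name the microRNAs without the arm of the hairpin, so both arms are given from RefSeq (GRCr8), with the seed, bases 2 to 8, in capitals. Both miR-135a arms lie on the minus strand of chromosome 7, at chr7:28499221-28499243 for 5p and chr7:28499183-28499204 for 3p. Both miR-376a arms lie on the plus strand of chromosome 6, at chr6:134559421-134559441 for 3p and chr6:134559383-134559403 for 5p. The 4 seeds differ from each other.
rno-miR-135a-5p: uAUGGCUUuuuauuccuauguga
rno-miR-135a-3p: uGUAGGGAuggaagccaugaaa
rno-miR-376a-3p: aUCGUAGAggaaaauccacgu
rno-miR-376a-5p: gGUAGAUUcuccuucuaugag

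Ptgs1 (NM_017043 in the deposited table) lies on the plus strand of chromosome 3 at chr3:39981419-40002993, and Ptgs2 (NM_017232) on the plus strand of chromosome 13 at chr13:64714063-64722320, both in GRCr8. Their promoters are shown because the genes are set against each other as the steady and the inducible cyclooxygenase. Each stretch is the 250 bases before the RefSeq start, at chr3:39981169-39981418 for Ptgs1 and chr13:64713813-64714062 for Ptgs2, with motif matches in capitals.
Ptgs1 promoter: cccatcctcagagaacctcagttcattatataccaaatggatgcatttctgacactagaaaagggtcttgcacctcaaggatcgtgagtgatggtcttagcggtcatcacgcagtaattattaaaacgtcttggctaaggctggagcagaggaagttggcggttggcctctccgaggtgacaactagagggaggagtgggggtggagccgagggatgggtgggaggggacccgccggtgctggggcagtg
Ptgs2 promoter: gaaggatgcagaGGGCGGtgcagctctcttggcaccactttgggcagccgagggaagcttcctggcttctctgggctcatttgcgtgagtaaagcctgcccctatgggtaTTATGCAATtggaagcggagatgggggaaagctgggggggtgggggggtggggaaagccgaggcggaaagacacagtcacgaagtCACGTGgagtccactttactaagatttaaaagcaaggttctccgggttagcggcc
Several motifs were searched on both strands. For the core promoter these were the letters TATAAA, which mark many start sites, and the GC box with the letters GGGCGG. For inducible factors they were the E-box with the letters CACGTG, then TTATGCAAT, of the kind C/EBP factors bind, and TGANTCA, of the kind AP-1 factors bind. The cAMP response element was searched as TGACGTCA. The Ptgs1 stretch held 0 matches. The Ptgs2 stretch held 3, a GC box, TTATGCAAT and an E-box, whose first bases lie 238, 140 and 55 bases before the start, and none overlaps another. Of 33469 rat promoter stretches of the same length, 30.5% hold GGGCGG, 5.59% hold CACGTG and 0.140% hold TTATGCAAT. TATAAA (12.9% of promoters), TGANTCA (6.34%) and TGACGTCA (1.59%) had no match in either gene. The GC content was 54.4% for Ptgs1 and 57.2% for Ptgs2. A match describes the letters of the window and is not a measured binding site.

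Levels are minus ΔCt, a log2 scale on which a difference of 1 is a doubling, if each cycle doubles the product, and a higher value means more transcript relative to the section's other genes. Of 2071 possible values, 160 were missing. The 109 sections carried 19 animal numbers, and number 4614 occurs under both WKY Cocktail and WKY Scrambled, which gives 20 sets of sections, called rats here. Sections were averaged per rat, and n counts rats. The median Ct of a section, a later cycle meaning less RNA, was 11.3 to 17.1 in SHR and 10.8 to 23.1 in WKY, and 9 sections with a median after cycle 18 were all from WKY. The panel measured 0 of 10 marker genes for neurons, astrocytes, microglia, oligodendrocytes and endothelium, so the cells in a section were not checked here. In such bulk sections, fewer expressing cells and less transcript per cell cannot be told apart. The normaliser of each section equalled its median Ct in 59 of 59 SHR and 1 of 50 WKY sections, so a strain difference and this difference in handling cannot be told apart on the deposited values.

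Ptgs1 was read in 103 of 109 sections, and its level differed less between rats than that of Ptgs2. In SHR Cocktail rats it was −1.76, −2.53, −2.58, −0.56 and −1.27, for rats 1694, 1696, 4595, 4598 and 4602, and averaged −1.74 ± 0.86 (SD, n = 5). In SHR Scrambled rats 4600 and 4604 it was −2.67 and −2.46, and in the SHR Sham rat 4596 it was −1.82. Both SHR Scrambled rats lay low, but SHR Cocktail rats 1696 and 4595 reached the same level, so these groups overlapped.

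In WKY Cocktail rats 1701, 4607, 4612 and 4614, Ptgs1 was −1.36, −1.34, −1.64 and −0.63, with a mean of −1.25 ± 0.43 (SD, n = 4). In WKY Scrambled rats 1700, 4610, 4614, 4615 and 4618 it was −1.59, −1.21, −2.63, −1.62 and −1.69, with a mean of −1.75 ± 0.53 (SD, n = 5). In WKY Sham rats 4611, 4613 and 4617 it was −0.29, −0.67 and −1.58, with a mean of −0.85 ± 0.66 (SD, n = 3). The 2 sets labelled with number 4614 held the highest Cocktail and the lowest Scrambled level in WKY. All 6 sections with no Ptgs1 value were WKY sections, 4 Cocktail and 2 Scrambled.

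Ptgs2 was lower than Ptgs1 in all rats but 1 of those with both, and more variable between rats. In SHR Cocktail rats 1694, 1696, 4595 and 4602 it was −4.75, −6.18, −4.49 and −5.33, and rat 4598, with 1 section, had no value (mean −5.19 ± 0.75, SD, n = 4). SHR Scrambled rat 4600 had a Ptgs2 level of −1.15 over 13 of its 14 sections, while rat 4604, with 1 section, had none, and the SHR Sham rat 4596 had −4.70. Rat 4600 lay 3.34 above the next of the other 5 SHR rats, which spanned −6.18 to −4.49, and 0.58 above the highest of all 17 other rats. By the animal numbers, the SHR Scrambled level of Ptgs2 is thus that of a single rat.

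In WKY Cocktail rats 1701, 4607, 4612 and 4614, Ptgs2 was −3.09, −3.18, −5.04 and −5.72 (mean −4.26 ± 1.33, SD, n = 4). Rat 4612 held 1 section at −11.30, and its median over sections was −3.93. In WKY Scrambled rats 1700, 4610, 4614, 4615 and 4618 Ptgs2 was −4.43, −2.32, −4.99, −3.42 and −3.58 (mean −3.75 ± 1.02, SD, n = 5). Rat 4610 held 1 section at 0.67, and its median over sections was −3.22. In WKY Sham rats 4611, 4613 and 4617 Ptgs2 was −1.73, −3.28 and −4.28 (mean −3.10 ± 1.29, SD, n = 3). The 3 WKY groups overlapped, and here both sets of number 4614 were the lowest of their group.

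**Figure D1:**
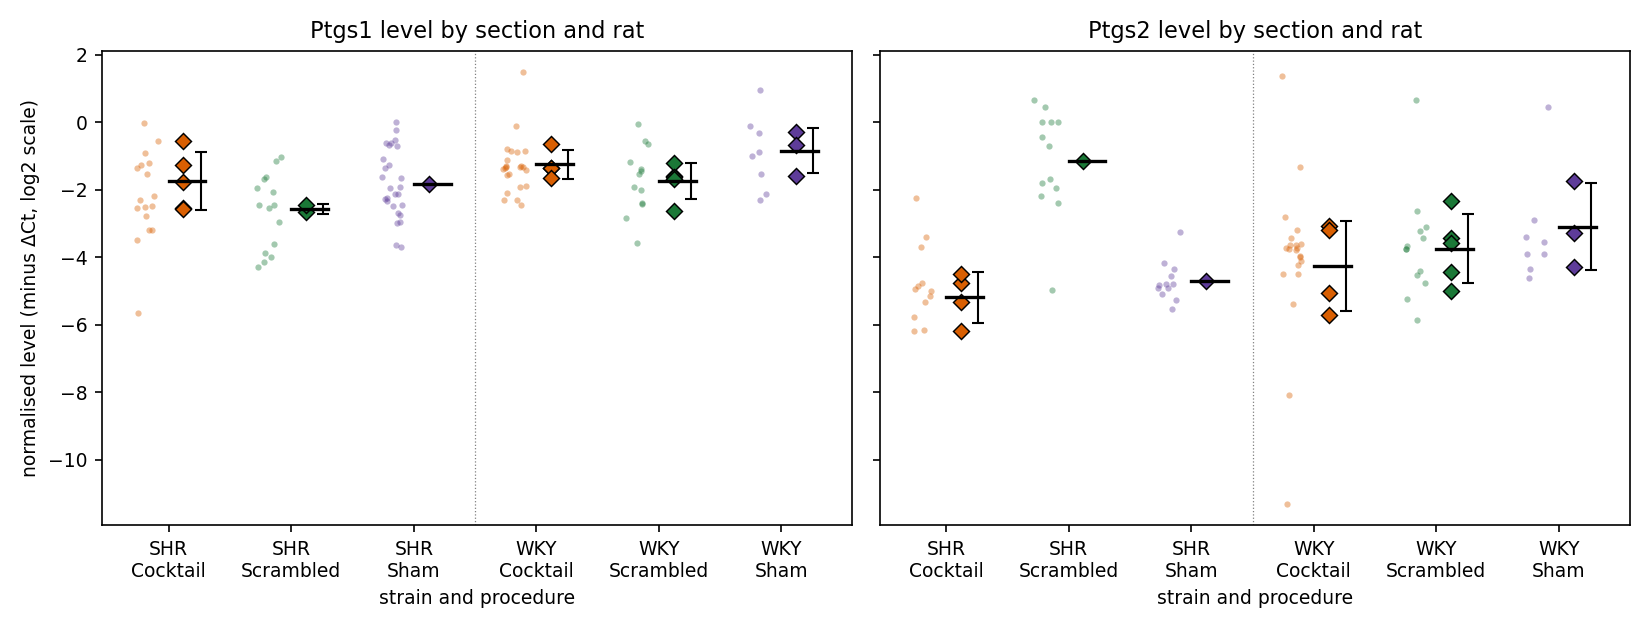
Level of Ptgs1 and Ptgs2 (minus ΔCt, log2 scale) by strain and procedure, with sections as pale dots, rats as diamonds, and the group mean and SD over rats as bars. The Ptgs1 rats lie between −2.67 and −0.29, while the Ptgs2 level of SHR Scrambled rat 4600, at −1.15, stands apart from the other SHR rats, at −6.18 to −4.49.

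By group mean, the Ptgs1 level ran from WKY Sham, the highest, through WKY Cocktail, SHR Cocktail, WKY Scrambled and SHR Sham to SHR Scrambled. Ptgs2 gave another order, from SHR Scrambled through WKY Sham, WKY Scrambled, WKY Cocktail and SHR Sham to SHR Cocktail. For both genes, the 95% interval of each of the 5 differences between neighbours in the order included 0 in limma, a linear model with a spread shared by all groups. Neighbours are the closest groups, and some groups further apart had intervals without 0. Ptgs1 in SHR Scrambled minus WKY Sham was −1.72 (−3.03 to −0.40), and Ptgs2 in SHR Cocktail minus WKY Sham was −2.09 (−3.80 to −0.39). These pairs were picked after their values were seen, and both set SHR against WKY. The spread of single sections within rats and that of rat means within groups are unlike measures, since a mean averages over its sections. They do not show whether sections or rats vary more. The SD was 1.06 between sections within rats and 0.63 between rat means within groups for Ptgs1, and 1.63 and 1.10 for Ptgs2.

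Ptgs2 had a value in 79 of 109 sections, a share of 72.5%. In SHR it was read in 37 of 59 sections (62.7%), 12 of 17 under Cocktail (70.6%), 13 of 15 under Scrambled (86.7%) and 12 of 27 under Sham (44.4%). In WKY it was read in 42 of 50 sections (84.0%), 21 of 27 under Cocktail (77.8%), 13 of 15 under Scrambled (86.7%) and 8 of 8 under Sham. The gaps lay in different kinds of sections in the strains. In WKY, sections without Ptgs2 had a median Ct of 21.1 and those with it 13.7, and 6 of the 9 sections with a median after cycle 18 had no value. In SHR the medians were 15.4 without and 14.4 with, and sections without Ptgs2 began at 13.2.

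The Ptgs2 readings of SHR ended at cycle 20. The latest of the 37 was at Ct 19.95, and 17 of them, 45.9%, fell between cycles 19 and 20. Among the 10 genes with missing values in SHR this was the highest share of readings in a gene's last cycle, the next being 27.03%. WKY sections had 9 Ptgs2 readings after cycle 20, the latest at 26.4, and 4 of 42 readings between cycles 19 and 20. SHR sections had 123 readings after cycle 20 over all genes, up to 24.8, and the latest Ptgs1 reading in SHR was 20.4. Ptgs2 lacked 22 values in SHR, and no gene lacked more there. No source used here says how readings were set to missing, and the cause of the edge was not tested. In the 22 SHR sections without a value, a reading at Ct 19.95 would have been a level of −6.74 to −2.83, with a median of −4.56, beside the mean levels of −5.19 in SHR Cocktail and −4.70 in SHR Sham. These Ptgs2 means therefore describe only the sections in which the gene was read.

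**Figure D2:**
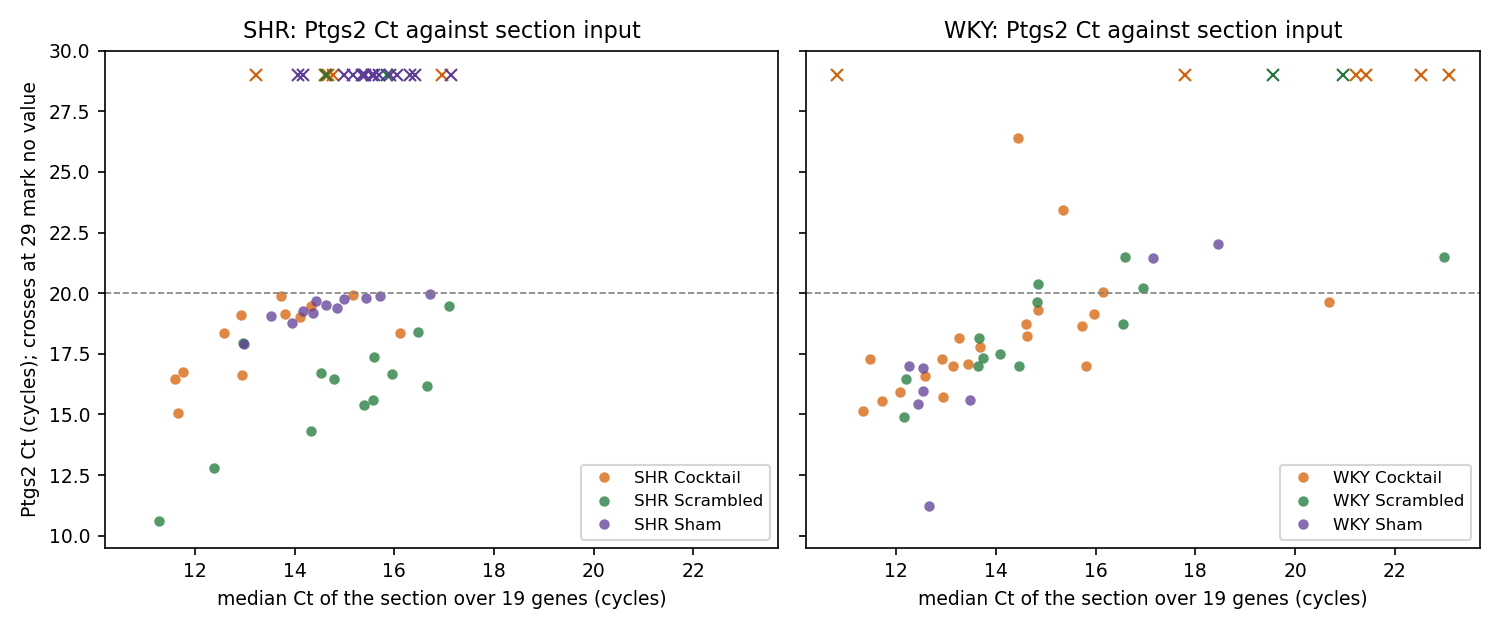
Ptgs2 Ct against the section's median Ct (cycles), with sections without a Ptgs2 value marked along the top, for SHR and WKY. No SHR reading is later than 19.95, whereas WKY readings reach 26.4 and most WKY gaps have a late median.

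The share of sections with Ptgs2 was tested over rats with exact permutation tests, two-sided, with p adjusted over 5 comparisons. In the controls, Scrambled and Sham together, the share was 92.9%, 0% (1 section) and 44.4% in SHR rats 4600, 4604 and 4596, while every WKY control rat had a value in at least 75% of its sections. The mean share was 45.8% ± 46.4 in SHR controls and 93.8% ± 11.6 in WKY controls (SD, n = 3 and 8), with an exact permutation p of 0.0182 and an adjusted p of 0.0909. Without rat 4604 the difference in share was −25.1 percentage points, beside −48.0 with it, and the adjusted exact permutation p was 0.318. Under Cocktail the mean share was 63.3% ± 41.5 in SHR and 75.3% ± 14.2 in WKY (SD, n = 5 and 4), with an adjusted exact permutation p of 0.762. WKY Cocktail rats had 75.3% ± 14.2 and WKY Scrambled rats 90.0% ± 13.7 (SD, n = 4 and 5; exact permutation p = 0.127, adjusted 0.318). SHR Cocktail differed from SHR Scrambled by 16.9 percentage points and WKY Scrambled from WKY Sham by −10, each with an adjusted exact permutation p of 0.762. No comparison of the share passed 0.05 after adjustment, but some had little or no room to pass. The smallest possible exact permutation p was 0.107 for WKY Scrambled against Sham, which could not pass. It was 0.0476 for SHR Cocktail against Scrambled and 0.0121 in the controls, before adjustment over 5 comparisons.

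The difference Ptgs2 minus Ptgs1 within a section sets the inducible against the steady enzyme and does not depend on the normaliser. It compares cycles of a pair of assays, so its size is not a ratio of molecules, but it can be compared between rats. It was −2.99, −3.64, −2.12 and −4.06 in SHR Cocktail rats 1694, 1696, 4595 and 4602 (mean −3.20 ± 0.85, SD, n = 4), 1.58 in SHR Scrambled rat 4600 and −3.14 in the SHR Sham rat. The sign in rat 4600 was opposite to that of every other rat.

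In WKY the difference was −1.91, −2.48, −3.40 and −4.39 in Cocktail rats 1701, 4607, 4612 and 4614 (mean −3.04 ± 1.09, SD, n = 4). It was −2.84, −1.11, −2.37, −1.80 and −1.89 in Scrambled rats 1700, 4610, 4614, 4615 and 4618 (mean −2.001 ± 0.65, SD, n = 5). Sham rats 4611, 4613 and 4617 had −1.44, −2.61 and −2.70 (mean −2.25 ± 0.71, SD, n = 3). By mean, WKY Cocktail rats 4612 and 4614 lay below all Scrambled rats, and 1701 and 4607 lay among them. Rat 4612 held 1 section at −9.00, and its median over sections was −2.50, within the range of the Scrambled means. Over sections, Ptgs2 exceeded Ptgs1 in 11 of the 78 with both values, of which 10 were among the 13 of rat 4600 and 1 was in WKY Scrambled rat 4610. That section of rat 4610, at 0.72, had a late median Ct of 22.98, and the rat's median over sections was −2.02.

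**Figure D3:**
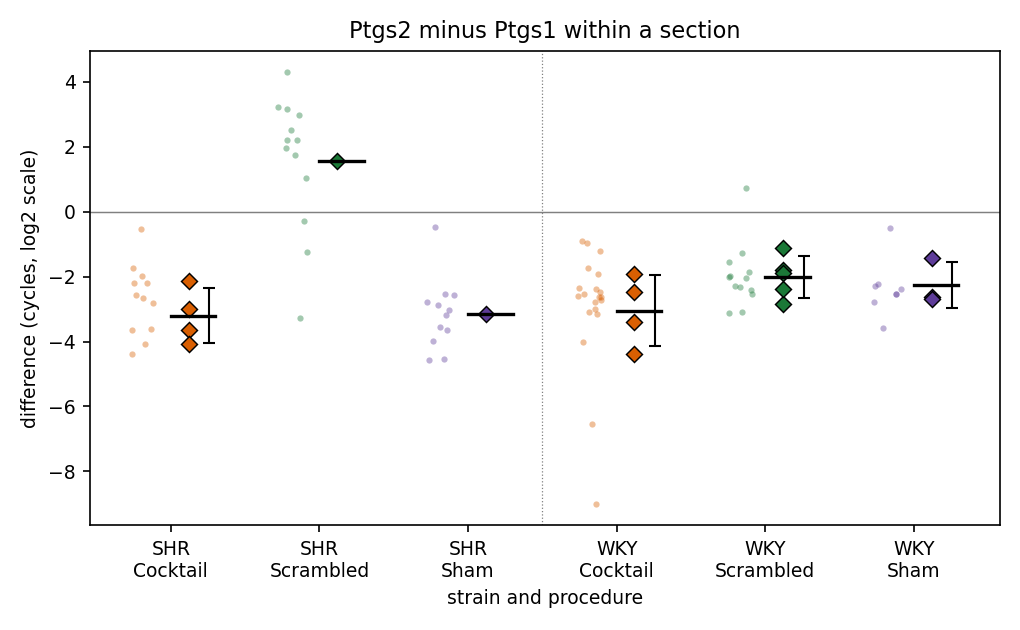
Ptgs2 minus Ptgs1 within a section (cycles, log2 scale) by strain and procedure, with sections as pale dots, rats as diamonds, and the group mean and SD over rats as bars. Only SHR Scrambled rat 4600, at 1.58, lies above 0 as a rat mean, and the other rats lie between −4.39 and −1.11.

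None of 5 comparisons of this difference passed the exact permutation test. SHR Cocktail differed from the single SHR Scrambled rat by −4.78 (p = 0.2, the smallest that 4 rats against 1 allow, adjusted 0.407, exact permutation). WKY Cocktail differed from WKY Scrambled by −1.04 (exact permutation p = 0.111, adjusted 0.407), and by −0.49 with each rat given by the median of its sections. SHR differed from WKY by −0.16 under Cocktail (adjusted exact permutation p = 0.857) and by 1.31 in the controls (adjusted 0.407), where the SHR side is rats 4600 and 4596. WKY Scrambled differed from WKY Sham by 0.25 (adjusted exact permutation p = 0.804).

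The level of each gene was compared between groups with limma over all 19 genes. In SHR, Cocktail against Scrambled called 10.5% of the genes, 2 of 19, and Ptgs2 was one of them. The difference in Ptgs2 between SHR Cocktail and SHR Scrambled was −4.04 on the log2 scale (SE 1.17, 95% interval −6.54 to −1.54, limma adjusted p = 0.0331, n = 4 and 1), which is 16.5-fold lower in SHR Cocktail. This call rests on rat 4600 alone for the Scrambled side, since without that rat no Scrambled value is left. The exact permutation p was 0.2, the smallest possible, with an adjusted p of 0.543, and leaving out SHR Cocktail rats 1694, 1696, 4598 or 4602 moved the limma adjusted p to 0.0712, 0.0550, 0.0683 or 0.0622. Rat 4598 had no Ptgs2 value, so leaving it out kept the Ptgs2 difference at −4.04 and moved its adjusted p through the other genes alone. Ptgs1 differed in SHR by 0.82 (SE 0.571, 95% interval −0.38 to 2.02, limma adjusted p = 0.332, n = 5 and 2). The interval of Ptgs1 leaves room for a difference of up to 2.02 higher in SHR Cocktail.

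In WKY, Cocktail against Scrambled called 0.0% of the 19 genes in limma, and 0 of them had an unadjusted p under 0.05. Ptgs1 differed by 0.50 (95% interval −0.46 to 1.47) and Ptgs2 by −0.51 (95% interval −2.01 to 0.99), both with a limma adjusted p of 0.860. Number 4614 occurs in both groups, and without both of its sets the differences were 0.0781 for Ptgs1 and −0.33 for Ptgs2. Without its Cocktail set alone the Ptgs2 difference was −0.0223. The difference between the strains in the response to the Cocktail was −3.53 for Ptgs2 (95% interval −6.44 to −0.62, limma p = 0.0206, adjusted 0.298) and 0.32 for Ptgs1 (95% interval −1.22 to 1.86, adjusted 0.709). That comparison called 0.0% of the genes, with 2 at an unadjusted p under 0.05. Neither gene's response was thus shown to differ between SHR and WKY after adjustment, and the Ptgs2 value again rests on rat 4600.

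Between the strains many genes of the panel differed, but neither cyclooxygenase passed under Cocktail or in the controls. In limma the controls were the mean of the Scrambled and Sham group means, so the SHR Sham rat weighed as much as SHR Scrambled. Under Cocktail, limma called 36.8% of the 19 genes between SHR and WKY, and in the controls 47.4%. Ptgs1 differed by −0.50 under Cocktail (95% interval −1.46 to 0.47, limma adjusted p = 0.397, n = 5 and 4) and by −0.89 in the controls (95% interval −1.91 to 0.13, adjusted 0.145, n = 3 and 8). The Ptgs2 level differed by −0.93 under Cocktail (95% interval −2.51 to 0.65, limma adjusted p = 0.365, n = 4 and 4) and by 0.50 in the controls (95% interval −1.28 to 2.28, adjusted 0.625, n = 2 and 8), where the SHR side is again rats 4600 and 4596. Exact permutation tests called 52.6% of the genes under Cocktail and 31.6% in the controls, and there the adjusted p was 0.431 and 0.115 for Ptgs1 and 0.418 and 0.792 for Ptgs2. Those tests pooled the control rats of each strain, with differences of −0.90 for Ptgs1 and 0.58 for Ptgs2. The direction of the limma Ptgs2 control value turns when missing values are given a low level, as described with the alternatives. The Scrambled injection was also compared with Sham in WKY, where limma called 0.0% of the genes, with 2 at an unadjusted p under 0.05. Ptgs1 differed by −0.90 (95% interval −1.95 to 0.15, limma adjusted p = 0.278) and Ptgs2 by −0.65 (95% interval −2.28 to 0.98, adjusted 0.619).

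**Figure D4:**
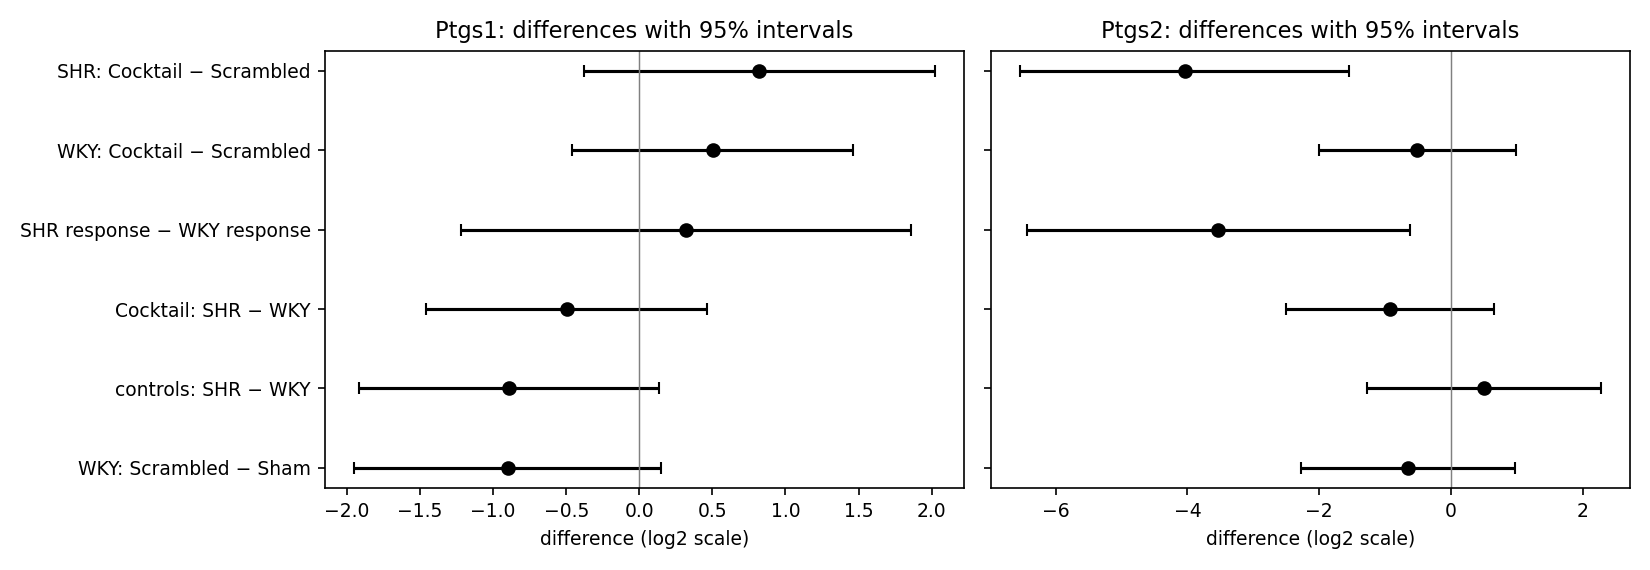
Differences in Ptgs1 and Ptgs2 level (log2 scale) with 95% intervals from limma in 6 comparisons, each named with the group subtracted after the minus sign. The Ptgs2 interval for SHR Cocktail minus SHR Scrambled, −6.54 to −1.54, is the one whose adjusted p was under 0.05, and it compares 4 rats with 1.

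Of 16 listed prostaglandin and leukotriene genes, 5 were measured, the cyclooxygenases together with Ptgr1, which inactivates prostaglandins and leukotriene B4, Alox5ap, and Ltb4r, a leukotriene B4 receptor. In SHR Cocktail against Scrambled, 1 of the 5 was lower and 0 higher, and that 1 was Ptgs2. The median difference of the 5 was 0.16, beside 0.26 over all 19 genes, of which 10.5% were called. In WKY Cocktail against Scrambled and in WKY Scrambled against Sham, 0 of the 5 passed, with medians of −0.31 and 0.03, beside 0.15 and 0.03 over all genes. Of all genes, 0.0% passed in either comparison. Between the strains 1 of the 5 was higher in SHR and 0 lower, with medians of −0.17 under Cocktail and 0.50 in the controls, beside −0.23 and −0.53 over all genes. That gene was Alox5ap, which was 4.44 higher in SHR than in WKY under Cocktail (limma adjusted p = 2.73e-07) and 4.27 higher in the controls (1.19e-06). The count of 1 of the 5 stands beside 36.8% of all genes called under Cocktail and 47.4% in the controls. Ptgr1 differed by 0.02 and 0.01 in the same comparisons (limma adjusted p = 0.965 and 0.979).

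Of 5 listed cytokines, 3 were measured, Il1a, Il1b and Il10, the first pair of which encode interleukin-1, an inducer of COX-2. None of the 3 passed in SHR Cocktail against Scrambled, where Il1b differed by −2.43 (limma adjusted p = 0.332), nor in WKY Cocktail against Scrambled, where it differed by 2.52 (adjusted 0.631). Of all 19 genes, 10.5% and 0.0% were called in these comparisons. In the controls, 1 of 3 was higher in SHR than in WKY, Il1b by 4.55 (limma adjusted p = 0.0135), and 1 was lower, Il10, with a difference of −2.16 (0.0331). Over all 19 genes limma called 47.4% there, 3 higher and 6 lower in SHR, so calls were common in the panel. The SHR controls include rat 4600. Il10 was also lower in SHR than in WKY under Cocktail, with a difference of −2.22 (limma adjusted p = 0.0263), where 36.8% of all genes were called.

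The sections of rat 4600 were looked at one by one after their values were seen. In 12 of its 14 sections, Fos, an immediate-early gene that marks recent neuronal activity, was between 3.75 and 7.58, and Ptgs2 was between −2.39 and 0.67 and Il1b between −0.62 and 2.08. In the other 2 sections Fos was −1.05 and 0.58. The first of these had a Ptgs2 level of −4.97, within the range of the other SHR rats, and no Il1b value, and the second had no Ptgs2 value and an Il1b level of −6.93. High Ptgs2, Fos and Il1b thus occurred in the same 12 sections, though among these 12 the Ptgs2 level did not follow that of Il1b, as given below. Th, which encodes the rate-limiting enzyme of catecholamine synthesis and marks the catecholamine neurons of the NTS, was at 2.53 and 0.89 in those 2 sections and at most 0.93 in those of the 12 where it was read. In 3 sections of rat 4600 the Ptgs2 Ct was itself the normaliser, which sets the level to 0. Ptgs1 spanned −4.30 to −1.04 in the 12 sections and was −1.68 and −1.95 in the other 2.

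How the cyclooxygenases varied with the other genes from section to section was described by Pearson's r after subtracting each rat's mean, for rats with at least 2 sections. The points share the rat and the section's normaliser, so r is a description. Ptgs1 was most like Alox5ap (r = 0.52, 98 sections) and Actb, which encodes beta-actin (r = 0.51, 100 sections), and both were positive in 6 of 6 rats with at least 5 sections. Ptgs2 came next (r = 0.35, 76 sections), and Il10, an anti-inflammatory cytokine, was the least like it (r = −0.31, 100 sections). Microglia express Alox5ap as well as Ptgs1, as background from other work.

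Ptgs2 was most like Agtrap, which encodes a protein that takes the angiotensin II type 1 receptor into the cell (r = 0.49, 73 sections), then Ptgs1 (0.35) and Fos (r = 0.28, 77 sections). With Agtrap r was positive in 3 of 4 rats with at least 5 sections, and −0.18 in rat 4600 over 11 sections. With Fos the relation was positive in 5 of 5 rats with at least 5 sections, between 0.33 and 0.62. Th was the least like Ptgs2 (r = −0.58, 71 sections) and was negative in 4 of 4 such rats, between −0.95 and −0.27. Without rat 4600 the values were 0.63 for Agtrap, 0.50 for Ptgs1, 0.21 for Fos and −0.54 for Th. After centring each raw section on its median they were 0.58, 0.44, 0.34 and −0.56. In rats 4607 and 4612, where r with Th was −0.95 and −0.76, 1 section each lay far from the rest in Ptgs2. Those sections were at 1.36 and −11.30, beside rat medians of −3.71 and −3.93. They weigh heavily in the r of Ptgs2 with Agtrap, Fos and Th, and r without them was not computed. Within rat 4600 itself Ptgs2 and Ptgs1 had r = −0.15 over 13 sections, while in rats 4595, 4596, 4607 and 4612 it was 0.71, 0.29, 0.63 and 0.51. Without any normalisation, where differences in the amount of RNA between sections are kept, r was 0.74 for this pair. With Fos, the r of 0.49 within rat 4600 took in a section with Fos at −1.05 and Ptgs2 at −4.97, apart from the other 12. The 2 sections with the highest Fos, 7.56 and 7.58, had Ptgs2 at −2.39 and −1.94, among the lower of those 12. With Il1b, Ptgs2 had r = 0.02 over 50 sections and −0.03 within rat 4600 over 12 sections. That relation was positive in 1 and negative in 2 of 3 rats with at least 5 sections.

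**Figure D5:**
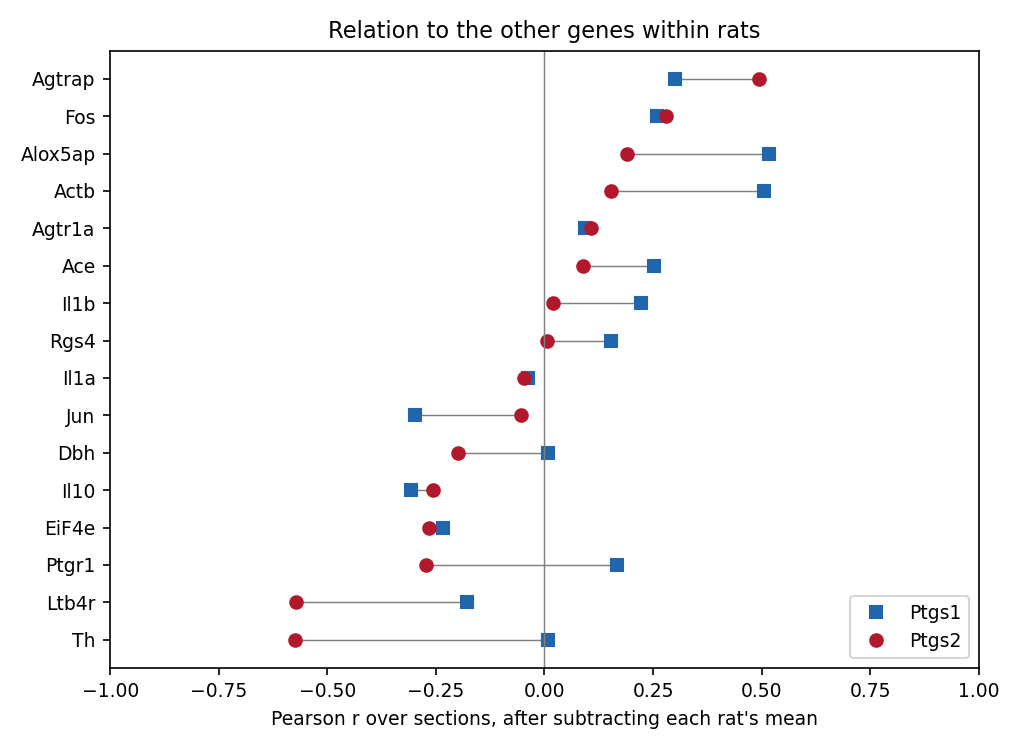
Pearson r of Ptgs1 and of Ptgs2 with each of 16 other genes over sections, after subtracting each rat's mean. Ptgs1 lies furthest right for Alox5ap and Actb, at 0.52 and 0.51, and Ptgs2 furthest right for Agtrap, at 0.49, and furthest left for Th, at −0.58.

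The lowest Ptgs2 readings came from WKY Cocktail sections. Section values there ran from −11.30 to 1.36, and in SHR Cocktail from −6.18 to −2.24. The lowest had a Ptgs2 Ct of 26.4 in a section of rat 4612 whose median Ct was 14.4, so it was not among the sections with a late median. The highest, 1.36, came from a section of rat 4607 with a median Ct of 20.7, in which Ptgs1 had no value. If Ptgs2 readings in SHR were cut at cycle 20, a level as low as −11.30 could not have been read there, since the lowest section median Ct was 11.3. Whether they were cut is not known. The lower ends of the SHR and WKY Cocktail ranges can therefore not be compared. In the SHR Sham rat 4596, Ptgs1 was −3.71 to 0.00 with a median of −1.49 in the 12 sections with Ptgs2, and −3.64 to −0.53 with a median of −2.28 in the 15 without. In SHR Cocktail rat 4595 the medians went the other way, −2.98 in the 6 sections with Ptgs2 and −2.47 in the 3 without. The means of rat 4595 were −2.37 and −3.01.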

How the data were processed

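Transcripts of 19 genes were measured on BioMark chips with EvaGreen over 30 cycles in laser-captured NTS sections, per the labels' protocols. The deposited normalised values are on a log2 scale (minus ΔCt), found by setting them against the raw table, and the deposited raw Ct values were treated as a score. No source used here names the authors' normaliser. In 44 WKY sections the normalised values matched raw values under another section name of the same rat, which leaves means per rat as they are. Samples were grouped by the strain, treatment and animal number in the labels. Means per rat and procedure were fitted with limma 3.58.1 (R 4.3.3), with 6 groups as the factor, two-sided, and Benjamini-Hochberg adjustment over 19 genes at 0.05. Ptgs2 minus Ptgs1 and the share of sections with a value were tested with exact permutation tests over rats (scipy 1.17.1, pandas 2.3.3, numpy 2.4.6, Python 3.11.15).

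Besides Ptgs1 and Ptgs2, the text names the 3 genes with the highest and the 1 with the lowest within-rat correlation with each, and list members. The members and lists were chosen with earlier results of these data known. The values of 1 gene are not reported here, although it entered the fits. The code was tested on simulated data. Alternatives were centring on the section median Ct, Actb or no normalisation, the median over a rat's sections, low values for missing readings, sections as units and leaving out each rat. Figures were drawn with matplotlib 3.10.9. The number of rats limits the precision, and Ct gives no read depth.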

Additional observations from a re-analysis of the deposited data

How the results depend on the processing

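Of 380 values of 22 results under alternatives, 341 kept their direction and side of the threshold, 23 reversed, 12 lost a call and 4 gained one, and the causes were not tested. The lower Ptgs2 level in SHR Cocktail than Scrambled was −4.04 with sections centred on their median Ct (limma adjusted p = 0.0584), −3.87 against Actb (0.153), −2.45 without normalisation (0.323), −0.79 with missing values at the lowest level (0.825), −4.04 with the spread of those groups alone (0.0828) and −4.04 by exact permutation (0.543), and leaving out each rat gave −4.27 to −3.71. Placing missing values at the strain's latest Ct gave −2.39 (limma adjusted p = 0.145) and at 30 cycles −0.69 (0.946), alternatives chosen after seeing the data. The difference between the strains in the Ptgs2 response was −4.34 with each rat given by the median of its sections (adjusted p = 0.0278) and −3.27 with sections as units and rats as a random block (0.0261), but 0.62 with missing values at the lowest level and 0.79 at 30 cycles. Ptgs2 in the SHR and WKY controls turned to −0.0012 without normalisation, −3.66 at the lowest level, −0.0436 at the latest Ct and −5.35 at 30 cycles. In WKY Cocktail against Scrambled it turned to 0.0641 without normalisation, and in WKY Scrambled against Sham leaving out a rat gave −1.24 to 0.033, positive without rat 4611. Ptgs1 turned to −0.16 against Actb in the response difference, and to 0.19 at the lowest level and 0.69 at 30 cycles for SHR against WKY under Cocktail. With sections as units, Ptgs1 in the controls was −0.93 (adjusted p = 0.0419). Ptgs2 minus Ptgs1 turned to 0.24 at the latest Ct for the strains under Cocktail (−0.61 to 0.22 leaving out a rat), to −2.54 at the lowest level for the controls (−1.05 to 3.67 leaving out a rat, negative without rat 4600), and for WKY Scrambled against Sham to −0.15 with each rat given by the median of its sections, −0.12 at the lowest level and −0.0813 without late sections. The share of sections with Ptgs2 in SHR Cocktail against Scrambled turned to −20.6 percentage points without rats of 1 section and ran from −29.5 to 63.3 leaving out a rat. For the strains it ran from −21.2 to 3.85 under Cocktail, and in the controls it was −54.2 without late sections (adjusted exact permutation p = 0.0303), −25.1 without rat 4604, the only control with 1 section (0.318), and −71.5 without rat 4600 (0.111). No paired analysis was possible because the groups share only 1 animal number, 4614, and the section numbers count sections within a group. Without rat 4600 no Ptgs2 value could be had for SHR Scrambled. Dixon's test of 12 sets of rats marked 0. It was run only on SHR Cocktail, WKY Cocktail and WKY Scrambled, the other groups having too few rats, so it could not mark rat 4600.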

Other observations

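The relations given here were picked after their values were seen, and Jun falls outside the rule for named genes. Ltb4r came close to Th in its relation to Ptgs2 from section to section (r = −0.57, 77 sections, and −0.62 without rat 4600). Its sign was not the same in all rats with at least 5 sections, being negative in 3 and positive in 2 of 5, between −0.89 and 0.42, unlike Th, which was negative in 4 of 4. Ptgs1 had r = 0.26 with Fos over 100 sections and was positive in 6 of 6 rats, and r = 0.01 with Th over 94 sections. Jun, an immediate-early gene whose product joins Fos in AP-1, had r = −0.05 with Ptgs2 over 75 sections and −0.30 with Ptgs1 over 93.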
